A study of Homo sapiens with 6 samples.

Results

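Aminoacyl-tRNA synthetases and amino acid transporters were followed on 6 two-colour arrays of the human cell line GM00156. The members were all genes whose symbol is that of a synthetase, of asparagine synthetase (ASNS), or of the carrier families SLC1A, SLC3A, SLC6A, SLC7A, SLC38A and SLC43A, taken from probes that name a single gene. They came to 62 genes on 81 probes, of 8987 genes on 11304 such probes, and fell into 30 enzymes (42 probes) and 32 transporters (39 probes). The probes of a gene were averaged, and 61 members could be tested. VARS2, the mitochondrial valine enzyme, had no usable value at 30 min and stood at -0.09, -0.50, -0.29 and -0.22 on the other harvests, against -0.09 on the self-self array.

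Treated cells received emetine, which blocks the movement of ribosomes along mRNA, at 100 µg/ml for 10 h, and untreated cells went through the same incubation without it. Both then got actinomycin D, a blocker of transcription, at 5 µg/ml, and cells were taken at 0, 10 and 30 min, 1 h and 8 h. Each of these 5 harvests has 1 array that sets treated against untreated RNA, and the remaining array, called self-self here, carries treated 0 min RNA in both channels. The line comes from the Coriell repository; the labels give no cell type and no replicate culture. With 1 array a harvest, precision is limited by how few arrays there are. The deposited log2 ratios come without a stated numerator, so a value above 0 is called positive and one below 0 negative, without a direction of change. Where 5 values are given in a row they are in the order 0, 10 and 30 min, 1 h and 8 h.

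Aminoacyl-tRNA synthetases join each amino acid to its tRNA and so feed the ribosome. Cytosolic and mitochondrial enzymes are mostly encoded by separate genes, marked here by a final 1 and 2 except for the cytosolic FARSA and FARSB. Any gene that serves both compartments was counted as cytosolic. Several cytosolic enzymes sit together in the multisynthetase complex. Carriers of the plasma membrane bring amino acids in; SLC7A light chains work as dimers with an SLC3A heavy chain. When amino acids run short, uncharged tRNA activates the kinase GCN2, the factor ATF4 is made, and ATF4 is known to act on genes for many synthetases, carriers and ASNS through a promoter element called the amino acid response element.

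The first comparison asks how enzymes and transporters stood on each array. The enzyme median was negative at every harvest, while the transporter median lay near 0. At 8 h single genes split much alike, with 17 of 29 enzymes and 18 of 32 transporters below 0. The enzyme medians were -0.17, -0.77, -0.76, -0.48 and -0.35 over 29 genes, and -0.01 on the self-self array. For the 32 transporters they were 0.10, 0.10, 0.13, -0.01 and -0.11, and 0.01 on the self-self array. These 32 include 7 SLC6A genes for carriers of other solutes or orphans, and SLC43A3, a purine base carrier. The median enzyme was thus below the median transporter by 0.27, 0.87, 0.89, 0.46 and 0.24, and by 0.03 on the self-self array. Medians of all 8748 genes tested were 0.06, 0.11, 0.16, 0.07 and 0.18. In bulk RNA of a culture, fewer cells of a kind and less RNA per cell cannot be told apart.

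Ranks within an array do not depend on its scale, and on them the median enzyme also stood below the median transporter on each array, the self-self array included. The median enzyme stood at percentile 29.3, 18.0, 12.6, 16.4 and 26.1 of all genes, and at 43 on the self-self array. The median transporter stood at percentile 54.2, 49.5, 48.4, 44.2 and 35.8, and at 52.4 on the self-self array. At 8 h the distance between the classes in ranks was thus close to that on the self-self array. With arrays centred and scaled to equal spread the difference was -0.26 at 8 h and -0.21 on the self-self array, against -0.57, -0.87, -1.02 and -0.81 at the earlier harvests. The order of the class medians at 8 h rested on the choice of the median: the difference of the class means was 0.08 there, with the enzymes above. HARS2 was the highest enzyme on that array, at 3.49, and its part in that mean was not tested.

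The spread of single genes was read against the self-self array, where the central 99% of all genes ran from -0.28 to 0.43. Below that range lay 10, 20, 18, 18 and 17 of the 29 enzymes, where 21.4%, 33.7%, 29.8%, 26.7% and 28.9% of all genes did. For the enzymes these are 34.5%, 69.0%, 62.1%, 62.1% and 58.6%, so their share was above that of all genes at each harvest. Of the 32 transporters 6, 9, 10, 11 and 13 lay below it. Above the range were 3, 3, 4, 4 and 9 enzymes and 5, 10, 12, 7 and 9 transporters, where 20.3%, 35.9%, 35.9%, 21.6% and 36.6% of all genes were. The same sign at all 5 harvests was kept by 15 enzymes on the negative and 5 on the positive side, and by 8 and 11 transporters, where 25.4% of all genes were always negative and 37.8% always positive.

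**Figure D1:**
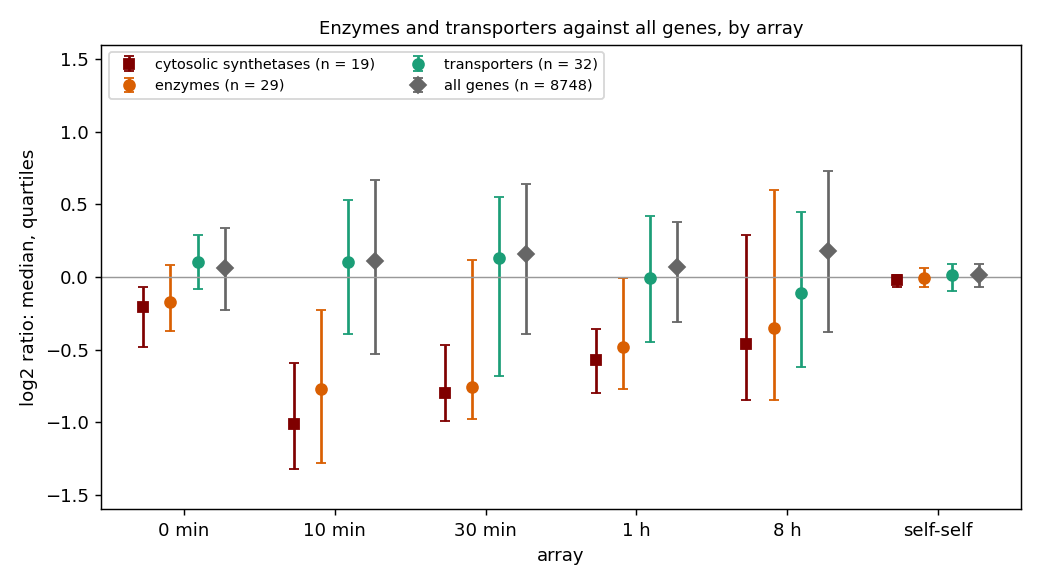
Median log2 ratio (y axis, with bars from the lower to the upper quartile) on each array (x axis) for the cytosolic synthetases, all enzymes, the transporters and all genes. Enzyme medians run from -0.77 to -0.17 at the harvests, below the transporters each time, and all medians lie near 0 on the self-self array.

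A mean over the harvests was then fitted to each gene with limma, with a line over time in the model and p-values adjusted over all 8748 genes. At an adjusted p under 0.05, 5 enzymes were called positive, 15 negative, and 9 did not pass. Among all genes tested 37.0% were called positive and 25.3% negative, so the enzyme shares of 17.2% and 51.7% stood below and above these. For the transporters the counts were 10 positive, 11 negative and 11 not passed, or 31.2% and 34.4%. The median of the fitted means was -0.49 for the enzymes and 0.07 for the transporters, against 0.14 for all genes. With each array centred on its median these became -0.60, -0.04 and 0.02, so the sign of the transporter median depends on where 0 is set. The enzyme median was -0.28 without the 10 min array and -0.89 with arrays centred and scaled to equal spread. As each harvest is a different time and cultures are not stated to be separate, the p-values measure only the spread between these arrays around a line. When the self-self array entered the fit as the level to compare with, no member passed, with adjusted p-values of the 41 called members from 0.157 to 0.685 (limma).

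Cytosolic synthetases were mostly negative. Of 19 measured, 12 were called negative (63.2%, where 25.3% of all genes were) and 2 positive (10.5%, where 37.0% were). A further 5 did not pass, and the median of the 19 was -0.66. Their array medians were -0.21, -1.01, -0.80, -0.57 and -0.46, and -0.02 on the self-self array. At all 5 harvests 6 of the 19 lay below the self-self range (31.6%, where 13.1% of all genes did) and 0 lay above it (12.2% of all genes did). Of the 12 on the negative side 10 were lowest at 10 min and 8 were closest to 0 at the 0 min harvest. The arrays differ in spread, and the robust SD over all probes was 0.44 at 0 min and 0.91 at 10 min.

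EPRS1, the enzyme that charges both glutamate and proline, stood at -0.56, -1.82, -1.20, -0.92 and -1.69, and at 0.01 on the self-self array. Every harvest was below the self-self range, with the lowest values at 10 min and 8 h. Its mean of -1.24 (SE 0.18, limma adjusted p = 0.00085) is a 2.36-fold difference between the channels. The beta subunit of the phenylalanine enzyme, FARSB, was at -0.72, -1.42, -1.31, -0.83 and -0.28 (mean -0.91, SE 0.15, limma adjusted p = 0.00162), and at -0.07 on the self-self array. Its 8 h value stood at the edge of the self-self range and the others well below it. FARSA, the alpha subunit of the same enzyme, lay on the other side at 0.35, 0.33, 0.59, 0.35 and 0.31, with -0.07 on the self-self array. FARSA stood above FARSB at each harvest, with 1 probe for each. Of its harvests only that at 30 min was above the self-self range, whose upper edge is 0.43. The mean of FARSA was 0.39 (SE 0.11, limma adjusted p = 0.0154), and its call was lost without the 30 min array (adjusted p = 0.0801) and with arrays centred on their medians (0.27, adjusted p = 0.0579).

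WARS1, the cytosolic tryptophan enzyme and a known interferon-inducible gene, was at -0.17, -1.45, -1.0, -0.88 and -1.01, and at 0.08 on the self-self array. The 0 min value lay inside the self-self range and the later ones well below it (mean -0.90, SE 0.17, limma adjusted p = 0.00283). QARS1, which charges glutamine, was at -0.46, -1.34, -0.94, -0.76 and -0.85, and at 0.09 on the self-self array. All 5 of its harvests lay below the range (mean -0.87, SE 0.14, limma adjusted p = 0.00151). SARS1, for serine, was the other cytosolic enzyme on the positive side, at 0.70, 0.43, 0.31, 0.37 and 0.99, and at -0.01 on the self-self array. It was positive at 5 of 5 harvests (mean 0.56, SE 0.13, limma adjusted p = 0.00617).

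The remaining cytosolic enzymes past the threshold had means from -0.86 for GARS1, for glycine, to -0.49 for RARS1, for arginine. Between them were IARS1 at -0.81, LARS1 at -0.76, AARS1 at -0.71, HARS1 at -0.67, NARS1 at -0.66 and KARS1 at -0.65, which charge isoleucine, leucine, alanine, histidine, asparagine and lysine. RARS1 rested on single arrays: it was at -0.76, -1.30, -1.02 and -0.57 and then at 1.21 at 8 h, against -0.07 on the self-self array. Without the 8 h array its mean was -0.91 (limma adjusted p = 0.00416), and without the 10 min array it was -0.28 (adjusted p = 0.286). Its call was also lost without the 30 min array (adjusted p = 0.177) and without the 1 h array (adjusted p = 0.0528). The 5 that did not pass were TARS1 at -0.30, YARS1 at -0.31, MARS1 at -0.25, VARS1 at -0.24 and CARS1 at -0.06. TARS1 and YARS1 were negative up to 1 h and stood at 0.47 and 0.31 at 8 h, and both were called negative without that array (limma adjusted p = 0.0289 and 0.0391) and also without the 0 min array (0.0371 and 0.0275). MARS1 and VARS1 were called negative with centred arrays (limma adjusted p = 0.0293 and 0.0234) and with equal spread as well (0.0133 and 0.00644). YARS1 was called in both settings too (0.0426 and 0.025), and TARS1 with equal spread (0.0369).

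HARS1 gives a measure of spot-to-spot error, since 10 probes carry its clone. They ranged from -0.76 to -0.48 at 0 min, -1.13 to -0.77 at 10 min, -1.0 to -0.47 over the 9 measured at 30 min, -0.60 to -0.31 at 1 h and -0.47 to -0.12 at 8 h. On the self-self array 9 of them ran from -0.13 to 0.13. The SD among these probes was 0.08 to 0.16 on the 6 arrays, and no harvest range overlapped the self-self range of the same probes except for the edge at 8 h, where both held values between -0.13 and -0.12. The mean of HARS1 leaves out the probe not measured at 30 min.

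Among all genes 25.3% were called negative and 37.0% positive. In the multisynthetase complex 6 of 7 enzymes were called negative (85.7%), with a median of -0.76. The other, MARS1, was called negative only with the arrays centred or scaled. The 12 other cytosolic enzymes had 6 called negative and 2 positive, with a median of -0.48. AIMP1, the only listed scaffold protein of the complex that was tested, stood at 0.74 (SE 0.12, limma adjusted p = 0.00151), opposite to the 6 called enzymes of the complex. By fold of the catalytic domain, class I cytosolic enzymes had 6 negative and 0 positive calls of 10, with a median of -0.62. Class II had 6 and 2 of 9 (66.7% and 22.2%), with a median of -0.66, so the 2 structural classes had close medians. EPRS1, which joins a class I and a class II enzyme, was counted in class I only.

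ASNS, which makes asparagine from aspartate and glutamine, stood at -0.15, -2.09, -1.15, -1.33 and -1.04, and at -0.15 on the self-self array. The 0 min and the self-self values were the same to 2 decimals, and the later 4 harvests lay far below both. At 10 min ASNS was at percentile 0.8 of all genes, and at 0 min at percentile 31.2. Its mean was -1.15 (SE 0.24, limma adjusted p = 0.00424), and it passed without each array in turn.

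**Figure D2:**
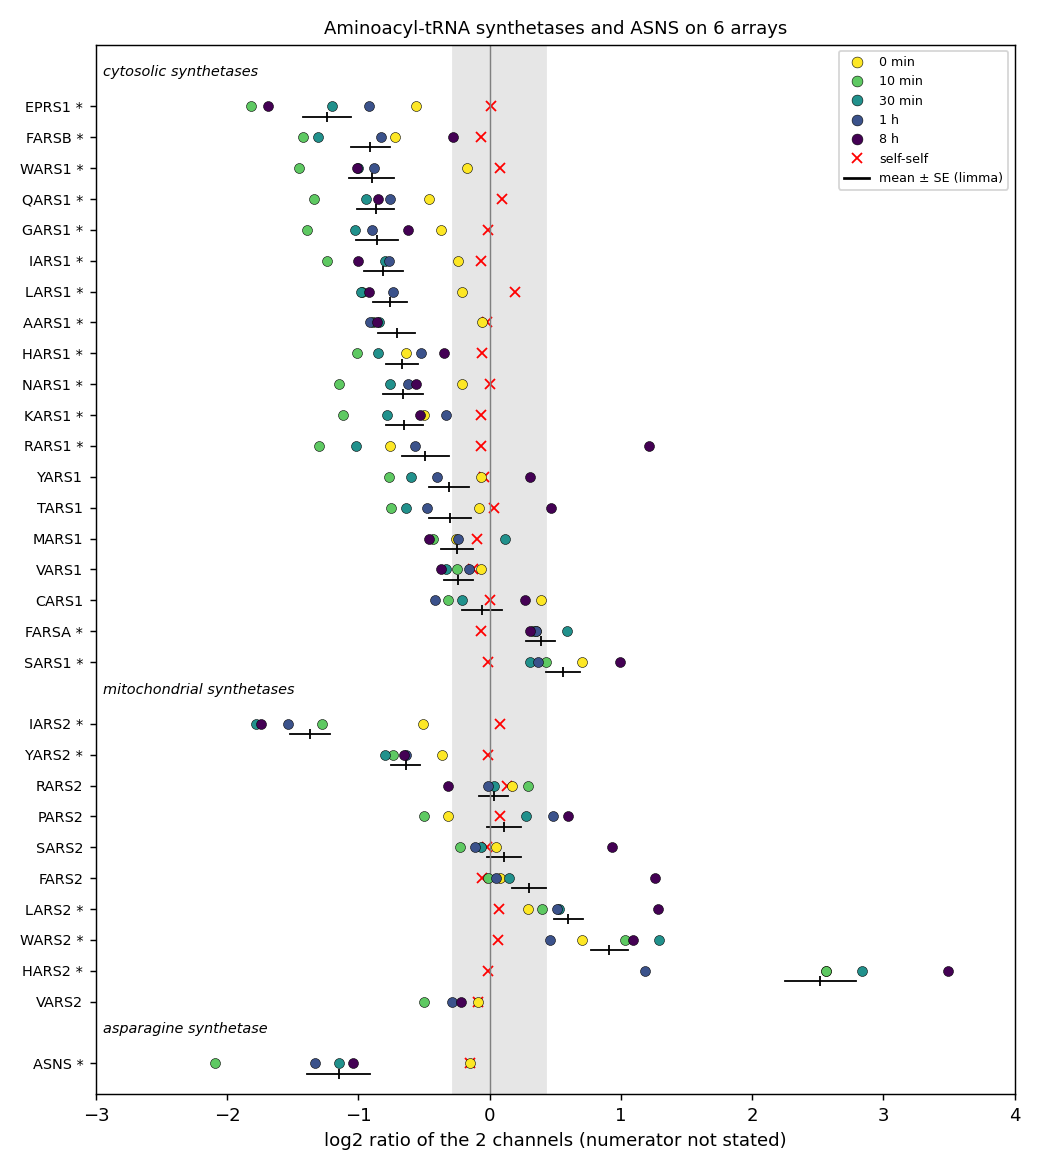
Log2 ratio (x axis) of each enzyme (y axis) at the 5 harvests (filled circles), on the self-self array (red crosses) and as fitted mean with its SE (black bars); an asterisk marks an adjusted p under 0.05 and the grey band is the central 99% of all genes on the self-self array. Most cytosolic enzymes lie left of 0, while the mitochondrial ones run from IARS2 at -1.37 to HARS2 at 2.52.

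Mitochondrial synthetases had calls on both sides. Of 9 tested, 3 were called positive and 2 negative and 4 did not pass, with a median of 0.11; these shares of 33.3% and 22.2% are near the 37.0% and 25.3% of all genes. Their array medians were 0.08, -0.01, 0.15, 0.05 and 0.93, and 0.06 on the self-self array. The 8 h array stood apart, with 6 of the 9 above the self-self range (36.6% of all genes were) and the median enzyme at percentile 80.0. IARS2, for isoleucine, had the lowest mean of all enzymes. It stood at -0.51, -1.28, -1.78, -1.54 and -1.74, and at 0.08 on the self-self array. All harvests were below the self-self range and those from 30 min on were lower than at 10 min, whereas 10 of the 12 cytosolic ones were lowest at 10 min (mean -1.37, SE 0.15, limma adjusted p = 0.000462). YARS2, for tyrosine, was at -0.36, -0.74, -0.80, -0.64 and -0.65 (mean -0.64, SE 0.11, limma adjusted p = 0.00208), and at -0.01 on the self-self array.

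On the positive side HARS2, the mitochondrial histidine enzyme, stood at 2.56, 2.56, 2.84, 1.18 and 3.49, and at -0.01 on the self-self array. It was in the top 2% of genes on every harvest array, from percentile 98.1 to 99.2. The mean of 2.52 (SE 0.27, limma adjusted p = 0.000462) rests on 1 probe. WARS2, for tryptophan, was at 0.70, 1.03, 1.29, 0.46 and 1.09 over 2 probes, and at 0.06 on the self-self array (mean 0.91, SE 0.14, limma adjusted p = 0.00125). All of its harvests were above the self-self range. LARS2, for leucine, was at 0.29, 0.40, 0.53, 0.51 and 1.28, and at 0.07 on the self-self array, with the 8 h value apart from the rest (mean 0.60, SE 0.11, limma adjusted p = 0.00219). RARS2 at 0.03, PARS2 at 0.11, SARS2 at 0.11 and FARS2 at 0.30 did not pass, although FARS2 passed without the 1 h array (limma adjusted p = 0.0415).

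HARS1 and HARS2 thus lay on opposite sides at every harvest, although the genes are neighbours on chromosome 5 and point away from each other. In GRCh38.p14 HARS1 ends its span at 140691370, where its transcript starts on the minus strand, and HARS2 starts at 140691455 on the plus strand. The 84 bases between them, in capitals with 5 bases of each gene around them, are shown because both genes start from this stretch (RefSeq, chr5:140691366-140691459, plus strand).
HARS1-HARS2: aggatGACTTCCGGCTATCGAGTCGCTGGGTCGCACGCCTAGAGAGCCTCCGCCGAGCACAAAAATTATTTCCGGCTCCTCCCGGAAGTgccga
No strand or transcript level can be read from a ratio, so how far each gene is transcribed from it was not tested.

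The promoters of the members were searched for the amino acid response element, spelled TGATGNAA, on both strands, from 250 bases before to 50 bases after each RefSeq start (GRCh38.p14). Promoters were found for 48 of the 62 members. The element was present in 15 of these 48 (31.2%), against 4.46% of all 27305 genes with promoters and 3.52% of the 7138 tested genes with promoters. Counted by promoter, it was in 15 of 71 promoters of the members (21.1%), against 3.62% of all 35116 promoters. By class 9 of 26 enzymes and 6 of 22 transporters held it, and among the enzymes 7 of 16 cytosolic and 1 of 9 mitochondrial ones. The other enzyme was ASNS. The matches of the enzymes are shown in 30 bases on the gene's own strand, with the element in capitals; TTNCATCA is the element read on the opposite strand.
AARS1: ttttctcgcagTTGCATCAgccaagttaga
ASNS: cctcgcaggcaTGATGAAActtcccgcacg
CARS1: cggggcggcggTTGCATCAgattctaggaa
GARS1: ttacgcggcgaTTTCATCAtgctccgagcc
IARS1: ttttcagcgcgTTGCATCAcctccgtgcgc
MARS1: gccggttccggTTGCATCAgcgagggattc
NARS1: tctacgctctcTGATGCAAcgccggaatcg
TARS1: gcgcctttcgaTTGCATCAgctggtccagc
YARS2: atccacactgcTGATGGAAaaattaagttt
These lie at chr16:70289675-70289704, chr7:97872458-97872487, chr11:3057407-3057436, chr7:30594834-30594863, chr9:92293692-92293721, chr12:57488053-57488082, chr18:57621804-57621833, chr5:33440956-33440985 and chr12:32756076-32756105. Measured from the start to the first base of the element they are at -187, -68, -2, -33, -13, -4, 15, 3 and -197. The matches of ASNS, GARS1 and TARS1 belong to alternative starts inside the gene. In 5 of the 9 the letters are TTGCATCA, and in 6 the element begins between -33 and 15.

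Of the transporters SLC1A3, SLC1A4, SLC1A5, SLC38A1, SLC3A2 and SLC7A1 held the element. Those of the most negative and the most positive carriers among them are shown in the same way.
SLC1A5: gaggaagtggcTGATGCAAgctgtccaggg
SLC1A4: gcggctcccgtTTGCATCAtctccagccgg
SLC1A3: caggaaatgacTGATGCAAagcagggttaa
SLC3A2: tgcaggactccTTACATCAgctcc
They lie at chr19:46784893-46784922, chr2:64989381-64989410, chr5:36596357-36596386 and chr11:62881725-62881748, and all but that of SLC1A3 belong to alternative starts inside the gene. That of SLC3A2 is cut where the promoter sequence ends. All 9 enzymes with the element had a negative mean and 6 passed, with a median of -0.66, while the 17 without it had 8 negative, 5 positive and a median of 0.03. The 2 enzyme sets also differ in compartment, as 7 of 16 cytosolic and 1 of 9 mitochondrial enzymes held the element. Cytosolic enzymes with a match were GARS1 at -0.86, IARS1 at -0.81, AARS1 at -0.71, NARS1 at -0.66, TARS1 at -0.30, MARS1 at -0.25 and CARS1 at -0.06. Within the cytosolic enzymes the values with and without a match overlapped. Cytosolic enzymes searched without a match were EPRS1 at -1.24, FARSB at -0.91, WARS1 at -0.90, QARS1 at -0.87, HARS1 at -0.67, KARS1 at -0.65 and RARS1 at -0.49. FARSA at 0.39 and SARS1 at 0.56 also had no match. The part of the compartment in the 2 medians was not tested. Among transporters with the element 3 were negative and 2 positive, with a median of -0.23, and among the 16 without it 6 were negative and 4 positive, with a median of -0.11. Across all 251 tested genes with the element 21.5% were called negative and 37.5% positive, near the 25.8% and 36.6% of the 6887 genes without it. A match is a description of these letters and no binding was measured. Of 5 other motifs looked for, TGACGTCA was in 0 of the 48 members (2.25% of all genes), CCAAT in 39.6% (39.7%), TATAAA in 8.33% (14%), CACGTG in 14.6% (8.77%) and TGATGNAAT, which overlaps the element, in 4.17% (1.22%).

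**Figure D3:**
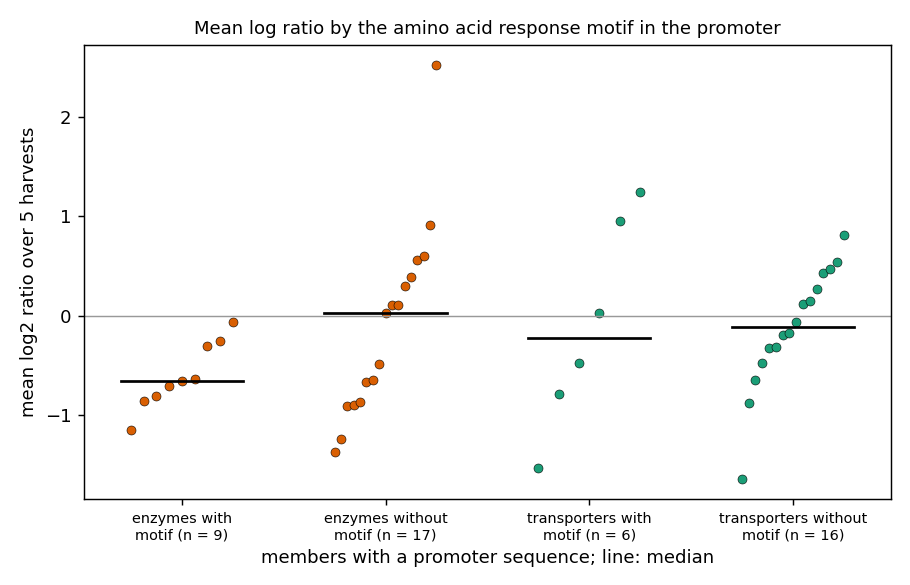
Mean log2 ratio over the 5 harvests (y axis) of the members with a promoter sequence, split by class and by whether the promoter holds the element (x axis); each point is a gene and each line a median. The 9 enzymes with the element all lie below 0, with a median of -0.66. As 7 of 16 cytosolic and 1 of 9 mitochondrial enzymes hold it, the split of the enzymes is partly one by compartment.

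Transporters were split by family and by single gene. In the SLC1A family 4 of 6 were called negative (66.7%) and 1 positive (16.7%), where 25.3% and 37.0% of all genes were. SLC1A5, the main glutamine carrier of many dividing cells, stood at -0.70, -2.27, -1.57, -1.26 and -1.82 over 2 probes, and at -0.13 on the self-self array. All harvests were below the self-self range, at percentile 0.5 of all genes at 10 min (mean -1.53, SE 0.20, limma adjusted p = 0.000643). Its neutral relative SLC1A4, a carrier of alanine, serine and cysteine, was at -0.06, -0.67, -1.05, -1.27 and -0.89, and at -0.10 on the self-self array. Here the 0 min value was no lower than the self-self one (mean -0.79, SE 0.16, limma adjusted p = 0.00338).

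The glutamate carriers of the family went both ways. SLC1A1 was at -0.46, -1.01, -1.01, -0.66 and -1.24, and at -0.02 on the self-self array (mean -0.88, SE 0.12, limma adjusted p = 0.000832). SLC1A2 was at -0.63, -1.38, -0.73, -0.51 and -0.10, and at -0.13 on the self-self array, so its 8 h value was back inside the self-self range (mean -0.67, SE 0.15, limma adjusted p = 0.00499). SLC1A3 lay opposite to both, at 1.28, 2.05, 1.27, 1.19 and 0.45, and at 0.08 on the self-self array. It had the highest mean of all transporters, 1.25 (SE 0.15, limma adjusted p = 0.000522), and every harvest was above the range. SLC1A6 did not pass, at -0.06.

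The large neutral amino acid carrier of system L is a dimer of the light chain SLC7A5 and the heavy chain SLC3A2, and its 2 chains lay on opposite sides. SLC7A5 was at -0.30, -2.02, -1.96, -1.59 and -2.33 over 2 probes, and at -0.14 on the self-self array. From 10 min on it was at or under percentile 1.0 of all genes, and at 0 min at percentile 20.2 (mean -1.64, SE 0.21, limma adjusted p = 0.000555). SLC3A2 was at 0.98, 0.54, 0.95, 0.53 and 1.75, and at -0.14 on the self-self array. All 5 harvests lay above the range (mean 0.95, SE 0.15, limma adjusted p = 0.00137). SLC3A2, on 1 probe, thus stood above SLC7A5 at each harvest. The heavy chain SLC3A1, of the cystine and dibasic amino acid carrier, had a mean of 0.54 (limma adjusted p = 0.0219), lost without the 10 min array (adjusted p = 0.0619) or the 30 min array (adjusted p = 0.0741).

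Other SLC7A light chains did not share the size of SLC7A5. SLC7A6, a light chain that exchanges cationic for neutral amino acids, was at 0.89, 0.08, 1.37, 0.86 and 0.84, and at 0.04 on the self-self array, with the 10 min value apart (mean 0.81, SE 0.18, limma adjusted p = 0.00522). SLC7A8, a second system L light chain, had a mean of -0.32 (limma adjusted p = 0.0316), lost without the 10 min, 30 min or 8 h array (adjusted p = 0.0539, 0.125 and 0.148). SLC7A7 and SLC7A9, light chains for cationic amino acids and cystine, and SLC7A10, for small neutral ones, did not pass, at 0.15, -0.19 and 0.27, and SLC7A10 passed without the 8 h array (limma adjusted p = 0.0363), while SLC7A9 was called negative with centred arrays (-0.30, adjusted p = 0.0401) and with equal spread as well (adjusted p = 0.018). The 2 probes of SLC7A7 name the same clone and disagreed, with means of -0.21 and 0.52, and only the higher passed (limma adjusted p = 0.00479). Among the cationic carriers SLC7A2 was at -0.35, -0.98, -0.70, -0.39 and -0.98, and at -0.11 on the self-self array (mean -0.68, SE 0.13, limma adjusted p = 0.00316). SLC7A1, the main arginine carrier of most cells, had a mean of 0.03 with a 95% interval from -0.22 to 0.27, and SLC7A4 one of 0.21; neither passed.

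**Figure D4:**
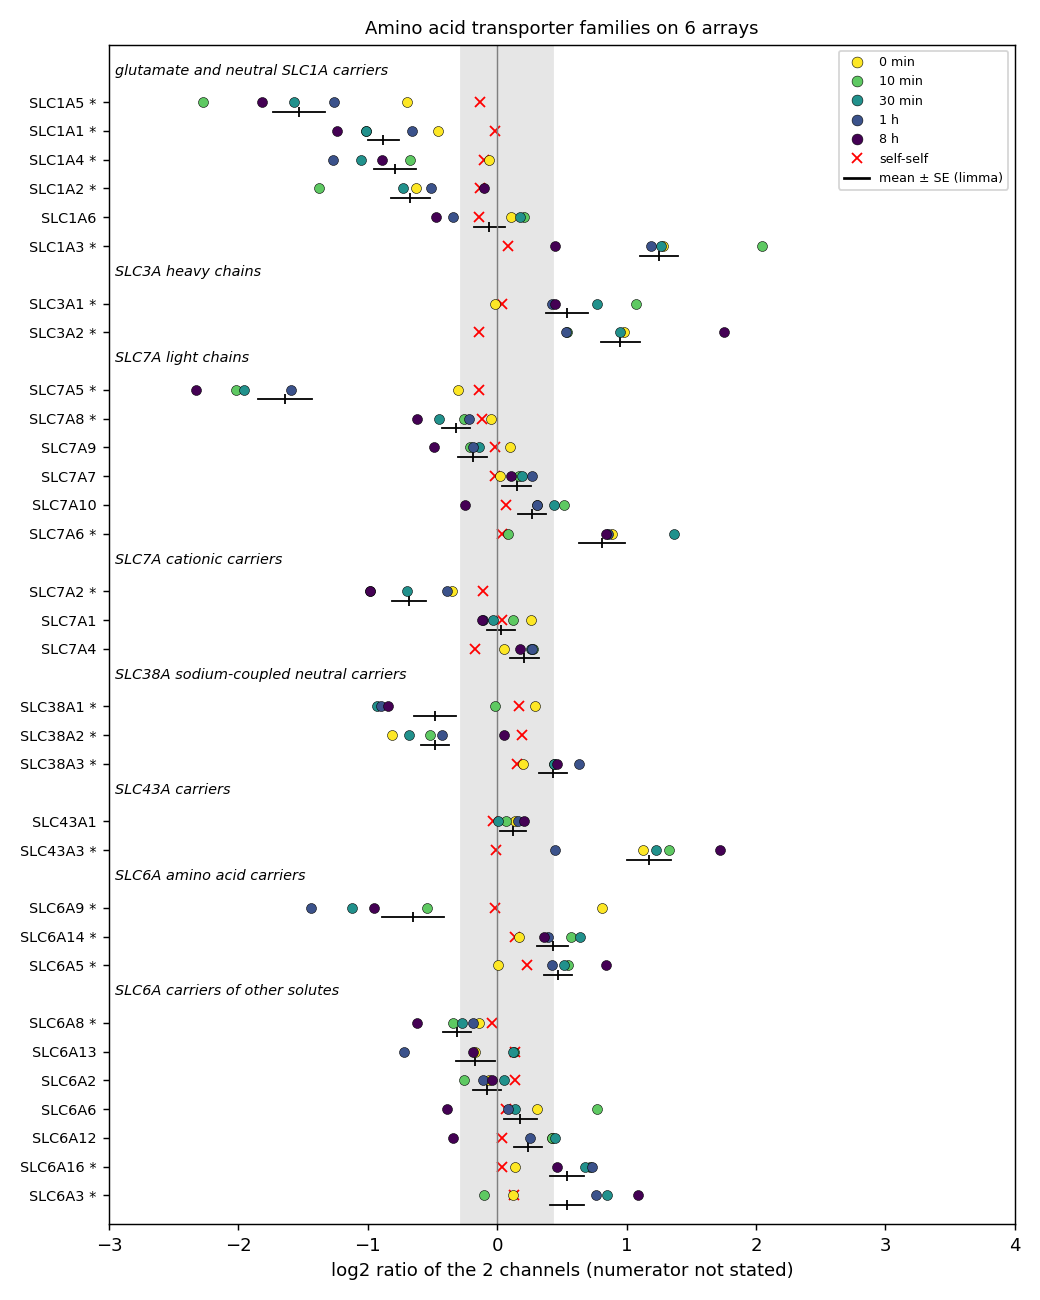
Log2 ratio (x axis) of each transporter (y axis, by family) at the 5 harvests (filled circles), on the self-self array (red crosses) and as fitted mean with its SE (black bars); an asterisk marks an adjusted p under 0.05 and the grey band is the central 99% of all genes on the self-self array. SLC7A5 and SLC1A5 lie farthest left and SLC1A3 and SLC43A3 farthest right.

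The sodium-coupled neutral carriers SLC38A1 and SLC38A2 both had a mean of -0.48 but differed in course. SLC38A1 was at 0.29, -0.02, -0.93, -0.90 and -0.84, and SLC38A2 at -0.81, -0.52, -0.68, -0.43 and 0.05, with 0.17 and 0.19 on the self-self array. The early harvests of SLC38A1 and the 8 h harvest of SLC38A2 lay inside the self-self range. SLC38A2 passed without each array in turn (limma adjusted p = 0.00605 over all harvests), while SLC38A1 (adjusted p = 0.0288) did not pass without the 30 min or the 1 h array (adjusted p = 0.0989 and 0.073). SLC38A3, a glutamine carrier of system N, had a mean of 0.43 (limma adjusted p = 0.0101). In the SLC43A family SLC43A3, a purine base carrier, was at 1.13, 1.33, 1.23, 0.45 and 1.72 over 2 probes, and at -0.01 on the self-self array. Every harvest was above the range (mean 1.17, SE 0.17, limma adjusted p = 0.000894), and SLC43A1, a system L carrier, did not pass at 0.12.

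The SLC6A family holds carriers of amino acids and of other solutes. SLC6A9, the glycine carrier GlyT1, changed side within the course, at 0.81, -0.54, -1.12, -1.44 and -0.95, and -0.02 on the self-self array. It was at percentile 90.9 of all genes at 0 min and at 1.1 at 1 h. Its mean of -0.65 (limma adjusted p = 0.043) became -1.01 without the 0 min array (adjusted p = 0.00569), and it was lost without the 10 min, 30 min or 1 h array (adjusted p = 0.0932, 0.118 and 0.0962). The glycine carrier SLC6A5 and the broad carrier SLC6A14 had means of 0.47 and 0.43 (limma adjusted p = 0.00866 and 0.0144). SLC6A5 was lost without the 8 h array (adjusted p = 0.0548) and SLC6A14 without the 30 min array (adjusted p = 0.0692).

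Among carriers of other solutes the orphan SLC6A16 was at 0.14, 0.72, 0.68, 0.73 and 0.46, and at 0.04 on the self-self array (mean 0.54, SE 0.13, limma adjusted p = 0.00727). The dopamine carrier SLC6A3 was at 0.12, -0.10, 0.85, 0.76 and 1.09, and at 0.13 on the self-self array, and only its later 3 harvests were above the range. Its mean of 0.54 (SE 0.13, limma adjusted p = 0.00915) did not pass without the 8 h array (0.41, adjusted p = 0.0596). The creatine carrier SLC6A8 passed at -0.31 (limma adjusted p = 0.0344), but 1 of its 3 probes had a mean of 0.07 and the others of -0.56 and -0.45. Its call was lost without the 10 min, 30 min or 8 h array (adjusted p = 0.065, 0.0966 and 0.156). SLC6A2, SLC6A6, SLC6A12 and SLC6A13, carriers of noradrenaline, taurine, betaine and GABA, did not pass, at -0.08, 0.18, 0.24 and -0.17, and SLC6A12 passed without the 8 h array (adjusted p = 0.0381).

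**Figure D5:**
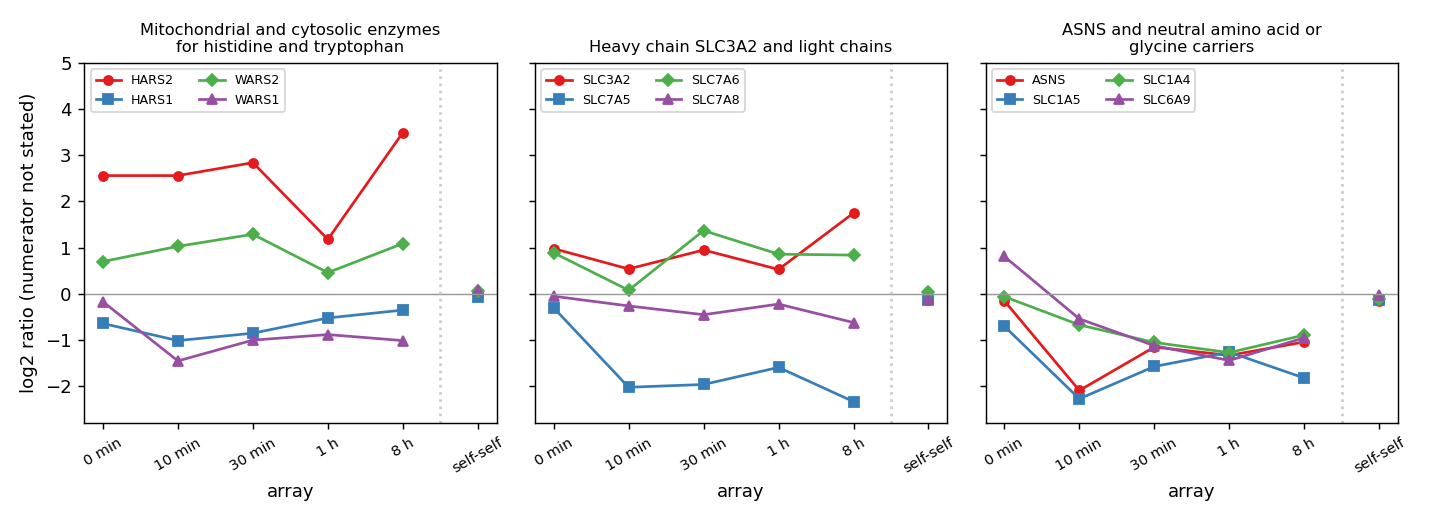
Log2 ratio (y axis) on each array (x axis) for paired mitochondrial and cytosolic enzymes, for the heavy chain SLC3A2 with light chains, and for ASNS with neutral amino acid and glycine carriers; lines join the harvests of a gene. HARS2 and WARS2 stay above HARS1 and WARS1, SLC3A2 stays above SLC7A5, and SLC6A9 crosses 0 between 0 and 10 min.

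The slope over the harvests asks whether a log ratio moved while transcription was blocked. No member passed (limma), and 1 gene of 8748 did (0.0114%). At an unadjusted p under 0.05 were 5 of 29 enzymes and 7 of 32 transporters, where 15.0% of all genes were. The smallest p-values among enzymes went to RARS1 with 0.41 per unit of log2(1 + min / 10) (SE 0.09, adjusted p = 0.115), FARS2 with 0.22 and LARS2 with 0.17. RARS1 is the gene whose 8 h value stood apart. Among transporters they went to SLC6A3 with 0.20, SLC1A3 with -0.21 and SLC38A2 with 0.14 (limma adjusted p = 0.221, 0.267 and 0.275).

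Lists of related function were read against the same shares of all genes, 37.0% positive and 25.3% negative. Of 22 genes for amino acid synthesis and its branches 14 were called negative (63.6%) and 2 positive (9.09%), with a median of -0.58. ALDH18A1 and PYCR1, which make proline, were at -1.51 and -1.20, and PHGDH, the first enzyme of serine synthesis, at -1.08. Genes outside the members that are known to respond to amino acid shortage had 7 positive (41.2%) and 3 negative (17.6%) of 17, near the shares of all genes, with a median of 0.15. The factors ATF3, DDIT3 and CEBPB were at 4.35, 3.38 and 1.76, and ATF4 at 1.25 (limma adjusted p = 0.000462), whereas the translation inhibitor EIF4EBP1 was at -1.36 and the tRNA exporter XPOT at -1.14. The RNA ratio of ATF4 thus stood on the positive side, while those of ASNS and most cytosolic synthetases stood on the negative side. ATF4 protein was not measured, and a link between these ratios was not tested.

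Sensors and relays of amino acid supply had 10 positive (47.6%) and 5 negative (23.8%) of 21, not far from the shares of all genes, with a median of 0.24. Farthest from 0 were the Ragulator subunits LAMTOR3 at 1.65 and LAMTOR4 at 1.54 and GCN1, the partner of GCN2, at -0.96. Amino acid carriers of other families had 3 positive and 1 negative of 6, with the mitochondrial ornithine carrier SLC25A15 at -1.16, SLC25A22 at 0.48 and SLC36A1 at 0.47. Genes for tRNA processing and export had 7 positive (38.9%) and 3 negative (16.7%) of 18, with a median of -0.01. That median covers a course: array medians were -0.01, -0.09, -0.03, 0.04 and 0.96, and 0.02 on the self-self array. At 8 h 12 of the 18 lay above the self-self range (36.6% of all genes did), and the median gene was at percentile 80.5. Slopes were above 0 for 16 of the 18, and 11 had an unadjusted p under 0.05 (15.0% of all genes did), though none passed after adjustment (limma). XPOT, the ribonuclease P subunit RPP38 at 1.13 and the tRNA 3' end nuclease ELAC2 at -1.04 were farthest from 0.

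Some facts of the arrays bear on these values. The 0 min array has channel names that give treated and untreated RNA and a description that gives treated RNA on both sides; without it all 41 called members kept their call. Robust SDs over probes ran from 0.44, on the 0 min array, to 0.91 on the harvest arrays, and that of the self-self array was 0.12. Of the 41 called members 31 passed without each array in turn, and the other 10 are named above. Ratios give no level, so marker genes cannot name the cells. Of 18 fibroblast markers 13 were called negative (72.2%) and 2 positive (11.1%). Of 13 B lymphocyte markers 0 were called negative and 3 positive (23.1%), and 10 did not pass. Among all genes 25.3% were called negative and 37.0% positive. Promoter GC content was 61.8% for the enzymes, 63.9% for the transporters and 64.0% for all genes (medians), and the median gene span was 35.0, 40.9 and 31.2 kb.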

How the data were processed

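The members and lists were chosen with earlier results of these data known. Per the labels, the authors subtracted background, divided the mean spot intensities of the 2 channels, normalised each slide on housekeeping genes and discarded ratios with a quality value below 0.5. The deposited values are log2 ratios, the base settled from the values, with the direction unknown (the labels divide a tumour sample by a reference, names that match neither culture) and no centring found: column medians were 0.05, 0.08, 0.15, 0.06 and 0.15 at 0, 10 and 30 min, 1 h and 8 h, and 0.01 on self-self. Each array repeats 1 value at 333 to 534 of 14080 probes; these were treated as not measured. Gene symbols were those of the platform annotation, brought up to date by gene ID: 11304 probes have 1 gene, 446 several and 2330 none, and 4 probes with several genes that include a member were not used. Probes measured on all 5 harvests were averaged per gene. For 8748 genes a mean over the 5 harvests was estimated together with a slope against log2(1 + min / 10), centred. The fit was by limma 3.58.1 under R 4.3.3 (3 residual degrees of freedom, two-sided, Benjamini-Hochberg, 0.05). It was tried on simulated data with independent noise for each gene. Those data held no shift of whole arrays and no unequal spread between arrays, so they do not show how the fit behaves under these. Values on every array are given for ASNS and for up to 6 called members per class and side with the largest mean in size; others shown so were chosen after their values were seen. For related lists up to 3 members of largest mean are named, beside ATF4 and EIF4EBP1, chosen after their values were seen. Alternatives were each array left out, centring, equal spread, 1 probe per gene, 4 of 5 harvests, repeated values kept, mean only, the self-self array as level, and time as rank.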

Additional observations from a re-analysis of the deposited data

Results flagged for a closer look

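The harvests are different times and no replicates, but 1 harvest stood far from the other 4 for 8 of 61 members by Dixon's criterion for 5 values (13.1%, where 8.24% of all genes did so). Chance marks about 1 in 20 sets of replicates. At 8 h RARS1 stood at 1.21, FARS2 at 1.26, LARS2 at 1.28 and SARS2 at 0.93, each above its other harvests, and SLC6A12 at -0.34 and SLC7A10 at -0.25, each below. AARS1 was nearer to 0 at 0 min, at -0.06, than at the other harvests, and FARSA was highest at 30 min, at 0.59. So 6 of the 8 fell on the 8 h array, the harvest farthest in time from the others. How the flagged genes among all genes fell on the arrays is not given here. The part of the 8 h array in these values was not tested.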

How the results depend on the processing

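No paired analysis was possible because each harvest has 1 array. With each array left out in turn, the enzymes past the threshold ranged from 4 to 6 on the positive and 14 to 17 on the negative side, the transporters from 8 to 10 and from 7 to 11 (7 without the 30 min array), and all genes from 2466 to 3237 and 1777 to 2199. The enzyme median ranged from -0.64 (without 8 h) to -0.28 (without 10 min) and the transporter median from 0.02 to 0.09. Against the self-self array in the fit 0 enzymes and 0 transporters passed on either side, and 0 positive and 1 negative of all genes. That fit takes the lone self-self array to have the spread of the harvests. Centred arrays gave 4 positive and 18 negative enzymes, a transporter median of -0.04, and 48.6% positive calls among all genes, against 59.4% as deposited. With equal spread as well, the enzyme median was -0.89, with 5 and 19 enzymes, 9 and 11 transporters and 49.3% positive calls among all genes. SLC3A1 and SLC6A9 were not called then (limma adjusted p = 0.0501 and 0.126). SLC6A8 was at 0.07 with 1 probe per gene, RARS1 was not called with repeated values kept (limma adjusted p = 0.0515), and RARS1, SLC38A1 and SLC6A9 were not called with a mean only (0.228, 0.0737 and 0.0894). The slope called from 0 to 522 of all genes with an array left out, the most without the 1 h array, where it called 1 enzyme, RARS1. It called 15 with centring, 58 with equal spread, 0 with repeated values kept and 0 with time as rank. Enzyme minus transporter differences by class means were -0.58, -0.38, -0.29 and 0.08 at 10 and 30 min, 1 h and 8 h. Differences of the class medians on equal spread were -0.57, -0.87, -1.02, -0.81 and -0.26 at the 5 harvests, and -0.21 on the self-self array. The 8 h difference of medians was then close to that on the self-self array. For cytosolic synthetases against amino acid carriers the differences of medians, as deposited, were -1.08 at 10 min and -0.37 at 8 h, and over probes -1.04 at 10 min. The causes of these shifts were not tested.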
